A study of Mus musculus with 6 samples.

Results

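The 9 genes of the mouse MHC class II antigen presentation pathway H2-Aa, H2-Ab1, H2-Eb1, H2-Eb2, H2-DMa, H2-DMb1, H2-Oa, H2-Ob and Cd74, and their transcriptional regulator Ciita, were followed across an in vivo Satb1 silencing study. They were taken by gene symbol, and all 10 were found among the 27634 genes of the deposited expression table. The RNA was labelled as that of Cancer-Associated Dendritic Cells, taken from tumour-bearing mice of strain C57BL/6 in which the ovarian line ID8-Defb29/Vegf-a, a syngeneic model, had been grown. All groups received rhodamine-conjugated polyethylenimine nanocomplexes carrying 100 µg of siRNA between days 32 and 38. The 4 groups were Satb1 siRNA with high downregulation (2 libraries) and its non-targeting (NT) control (2 libraries), and Satb1 siRNA with low downregulation (1 library) and its own NT control (1 library). The labels do not say whether repeat libraries came from separate mice, or how many mice were pooled.

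MHC class II molecules present peptides from endocytosed proteins to CD4+ T cells, and dendritic cells carry them at high levels. Cd74, the invariant chain, blocks the groove of newly made class II dimers and guides them to endosomes, where H2-DM exchanges the remaining Cd74 fragment for peptide and H2-O restrains H2-DM. Ciita is a co-activator that does not bind DNA itself: it docks on a complex of RFX, CREB and NF-Y factors assembled on the conserved X and Y boxes of these promoters. SATB1 is a chromatin organiser.

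The X and Y box region is shown for the 6 members in which an ordered pair of letters GNAAC and ATTGG was found, since X and Y boxes are where Ciita is recruited; a match of letters is a description and not a binding site. The sequences are from RefSeq, build GRCm38.p6, chromosome 17, read 5′ to 3′ on the gene's strand, with GNAAC and ATTGG in capitals.
H2-Aa: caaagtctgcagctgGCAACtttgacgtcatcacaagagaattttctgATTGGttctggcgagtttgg
H2-Eb1: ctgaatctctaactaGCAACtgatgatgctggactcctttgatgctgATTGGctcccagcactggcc
H2-Eb2: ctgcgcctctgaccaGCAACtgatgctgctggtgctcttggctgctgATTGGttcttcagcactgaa
H2-DMb1: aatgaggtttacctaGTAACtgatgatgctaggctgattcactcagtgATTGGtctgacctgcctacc
H2-Oa: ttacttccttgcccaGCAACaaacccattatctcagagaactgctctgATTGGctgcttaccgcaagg
H2-Ob: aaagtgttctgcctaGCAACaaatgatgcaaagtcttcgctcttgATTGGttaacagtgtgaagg

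The segments lie at chr17:34287852-34287919 on the minus strand for H2-Aa, and on the plus strand at chr17:34305761-34305827 for H2-Eb1, chr17:34325528-34325594 for H2-Eb2, chr17:34153082-34153149 for H2-DMb1, chr17:34092288-34092355 for H2-Oa and chr17:34238803-34238867 for H2-Ob. The start of GNAAC lay between 76 and 132 bases before the annotated start, and ATTGG began 30 to 33 bases further downstream. A search allowing 15 to 40 bases between the motif starts, chosen with these sequences in view, found the pair on the gene's strand in 6 of the 8 windows of the 7 members with a RefSeq promoter, and in 2.09% of 32851 windows of all genes. On either strand the shares of all windows were 84.8% for GNAAC alone, 37.4% for ATTGG alone and 4.19% for the ordered pair. The windows of H2-DMa held no ordered pair. Members with the pair included genes that were lower, higher and not called after Satb1 siRNA, as described next.

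Libraries held between 24553454 and 71272720 counts, so 3 counts corresponded to between 0.0421 and 0.122 CPM, the count scaled to library size. Levels are given as CPM scaled over all 6 libraries by the TMM method. Satb1, the targeted gene, had 3.12 and 3.58 CPM after Satb1 siRNA in the high experiment, against 16.6 and 15.3 CPM after NT siRNA (log2 fold change -2.25, SE 0.072). In the low experiment it was at 7.42 CPM with Satb1 siRNA and 8.89 CPM with NT siRNA. That is 0.835 of the NT value (95% counting interval 0.670 to 1.04), so a difference in Satb1 was not detectable at this depth. Its direction also depended on scaling: the log2 ratio was -0.26 by TMM and 0.095 with library size alone. Over all genes, repeat libraries were close to sampling noise. The mean chi-square per gene was 1.37 between the Satb1 siRNA repeats and 1.2 between the NT repeats. It was 67.4 between the first library of each siRNA. The medians were 0.52, 0.50 and 6.02. Single members could lie further apart: the largest chi-square of a member was 10.6 between the Satb1 siRNA repeats, for Cd74. Between the NT repeats it was 2.40, for H2-Eb1. The tests in the high experiment used the repeats as replicates, so their SE and p-values measure a difference against the spread between near-identical libraries and not between mice. With each pair counted as 1 sample, the high experiment has 1 sample per siRNA and no test of its own.

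In the high experiment the classical class II chains and Cd74 fell after Satb1 siRNA while Ciita did not pass the test. Cd74 stood at 81.4 and 76.1 CPM with Satb1 siRNA, against 155 and 153 CPM in NT libraries. Its log2 fold change was -0.96 (SE 0.022, adjusted p = 5.88e-43, edgeR quasi-likelihood test with Benjamini-Hochberg adjustment over 20242 genes), and both Satb1 siRNA libraries lay below both NT libraries. H2-Ab1, the beta chain of I-A, stood at 96.9 and 95.3 CPM with Satb1 siRNA and 177 and 176 CPM with NT siRNA, a log2 fold change of -0.87 (SE 0.019). H2-Aa, the I-A alpha chain, was at 61.7 and 57.4 CPM with Satb1 siRNA, against 91.6 and 90.8 CPM with NT siRNA (log2 fold change -0.61, SE 0.025). H2-Eb1, the I-E beta chain, changed least of the 4, with 69.1 and 67.2 CPM in Satb1 siRNA libraries and 88.9 and 86.6 CPM in NT libraries (log2 fold change -0.36, SE 0.024). All 4 were lower in both Satb1 siRNA libraries than in either NT library. C57BL/6 mice lack a functional I-E alpha chain, and the row of that gene held at most 0.161 CPM in a library.

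The peptide exchange factor H2-DM fell by a similar amount to H2-Eb1. H2-DMa was at 17.9 and 16.3 CPM with Satb1 siRNA and 21.1 and 22.03 CPM with NT siRNA, and its log2 fold change was -0.33 (SE 0.043). H2-DMb1 was at 16.9 and 17.5 CPM with Satb1 siRNA and 21.98 and 23.1 CPM with NT siRNA, and its log2 fold change was -0.39 (SE 0.041). The inhibitory side moved the other way in part: H2-Ob was at 2.76 and 2.74 CPM with Satb1 siRNA, against 1.82 and 1.95 CPM with NT siRNA (log2 fold change 0.55, SE 0.123, edgeR adjusted p = 7.72e-05). Its partner H2-Oa was near the bottom of the measurable range, at 0.610 and 0.572 CPM with Satb1 siRNA and 0.485 and 0.564 CPM with NT siRNA, from 32 to 44 counts a library, and did not pass the test (edgeR adjusted p = 0.535). H2-Eb2, a further class II beta gene, rose, with 3.98 and 4.51 CPM in Satb1 siRNA libraries and 3.19 and 3.06 CPM in NT libraries (log2 fold change 0.44, SE 0.098).

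Ciita was at 3.56 and 3.74 CPM with Satb1 siRNA and 3.50 and 3.20 CPM with NT siRNA, from 210, 209, 260 and 250 counts. Its log2 fold change was 0.13 (SE 0.0998, edgeR adjusted p = 0.261). That result is by count. Per length, in the authors' FPKM, Ciita was at 1.01 and 1.07 with Satb1 siRNA and 0.80 and 0.75 with NT siRNA. No test was run on FPKM. In all, 6 of the 10 members were lower, 2 were higher and 2 were not called. The background was wide: 66.0% of tested genes were called, 33.2% lower and 32.8% higher. The libraries of all 10 members did not overlap between siRNAs, and nor did those of 82.2% of tested genes. The members' median log2 fold change was -0.34, against 0.011 over all tested genes. When repeats were summed and the low experiment entered as the second pair, edgeR called 0 of the 10 members, with 1 at an unadjusted p under 0.05, and 0.0315% of genes.

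**Figure D1:**
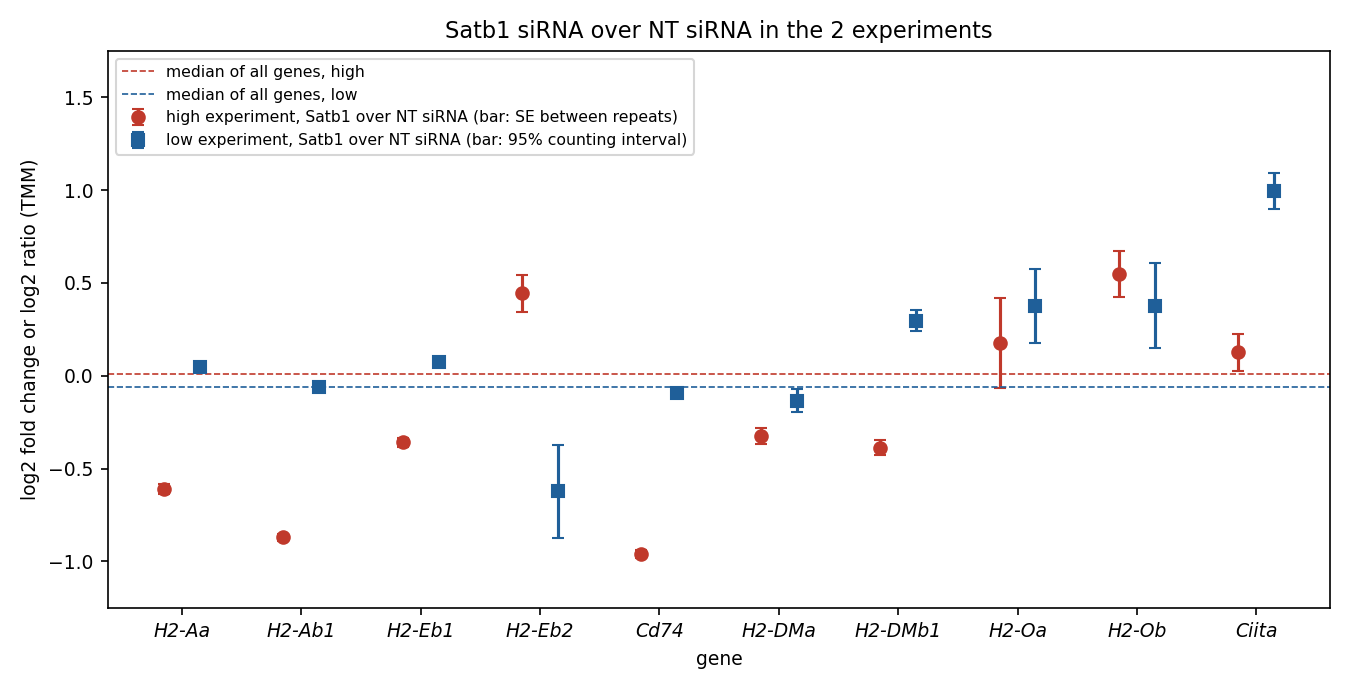
Log2 fold change of each member, Satb1 siRNA over NT siRNA, in the high experiment (circles, bars are SE between repeats) and the low experiment (squares, bars are 95% counting intervals), with dashed lines at the median of all genes. In the high experiment Cd74 and H2-Ab1 lie lowest, at -0.96 and -0.87, and Ciita lies at 0.13; in the low experiment Ciita lies highest, at 0.99.

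The low experiment had 1 library per siRNA and no replicate check. Its TMM-scaled median over all genes was -0.059 on the log2 scale, but 0.29 with scaling by library size alone, so ratios near 1 have no firm direction. Cd74 was at 6386 CPM with Satb1 siRNA and 6811 CPM with NT siRNA. H2-Aa was at 2319 CPM with Satb1 siRNA and 2243 CPM with NT siRNA, and H2-Eb1 at 2032 CPM with Satb1 siRNA and 1934 CPM with NT siRNA. H2-Ab1 was at 1632 CPM with Satb1 siRNA and 1705 CPM with NT siRNA. Log2 ratios of these 4 were between -0.093 and 0.071 and lay within 0.13 of the median of all genes. With library size alone all 4 were above 0, and with DESeq2 size factors H2-Aa was at -0.013.

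Ciita stood apart in the low experiment, at 132 CPM with Satb1 siRNA and 66.4 CPM with NT siRNA, from 2939 and 1269 counts. That is 1.99-fold, and counting error alone gives a 95% interval of 1.87 to 2.13. H2-Eb2 was at 10.5 CPM with Satb1 siRNA and 16.2 CPM with NT siRNA, a ratio of 0.649 (95% counting interval 0.545 to 0.772). These were the only members past 1.5-fold, 1 higher and 1 lower, where 15.6% and 12.2% of 13700 genes were; with library size alone 4 members were past it, all higher. H2-Oa was at 23.1 CPM with Satb1 siRNA and 17.8 CPM with NT siRNA, and H2-Ob at 18.04 CPM with Satb1 siRNA and 13.9 CPM with NT siRNA, each a ratio of 1.30. H2-DMb1 was at 261 CPM with Satb1 siRNA and 212 CPM with NT siRNA, and H2-DMa at 196 CPM with Satb1 siRNA and 216 CPM with NT siRNA.

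The difference between the experiments in the response to Satb1 siRNA was set against the spread between repeats of the high experiment, since the low libraries have none. By that measure 8 members passed, 7 with a value below 0 and 1 above (high minus low; edgeR quasi-likelihood fit with Benjamini-Hochberg adjustment over 20971 genes), as did 39.7% of all genes, 21.8% below 0 and 17.9% above. Whether the responses differ between separate samples was thus not tested. The difference was -0.87 for Cd74, -0.81 for H2-Ab1, -0.87 for Ciita and 1.06 for H2-Eb2 on the log2 scale. H2-Oa and H2-Ob did not pass, with edgeR adjusted p of 0.599 and 0.489. H2-DMa (-0.20, edgeR adjusted p = 0.00202) no longer passed without the second Satb1 siRNA library of the high experiment (edgeR adjusted p = 0.111).

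Ratios between members within a library do not depend on scaling. The count of Cd74 per count of Ciita was 22.9 and 20.4 with Satb1 siRNA in the high experiment, against 44.3 and 47.6 in NT libraries. In the low experiment it was 48.3 with Satb1 siRNA and 103 with NT siRNA. The ratio was thus lower with Satb1 siRNA in both experiments, at 0.471 of the NT value in the high and 0.470 in the low experiment, although Cd74 fell in the first and Ciita was higher in the second. The log2 changes were -1.09 (95% counting interval -1.28 to -0.90) and -1.09 (-1.18 to -0.99). Per length, in the authors' FPKM, Cd74 per Ciita gave other values. In the high experiment it was 72.1 and 63.6 with Satb1 siRNA and 165 and 173 in NT libraries. In the low experiment it was 196 with Satb1 siRNA and 428 with NT siRNA. The ratio was again lower with Satb1 siRNA in both, but the near-equal 0.471 and 0.470 hold for counts alone.

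Members were then set against Ciita by count, a choice made after its values were seen. Of the other 9 members, 6 were lower in the high experiment and 9 of 9 in the low experiment. Of 13699 genes, 70.4% were lower per Ciita in the high experiment and 90.7% in the low experiment, so these counts are near the background. H2-Ab1 per Ciita with Satb1 siRNA was 0.501 of the NT value in the high experiment and 0.480 in the low experiment. H2-Aa per Ciita changed by -0.74 on the log2 scale in the high experiment and by -0.95 in the low experiment. H2-Eb2 per Ciita changed by 0.32 in the high experiment and -1.62 in the low experiment, the widest gap of the 9.

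**Figure D2:**
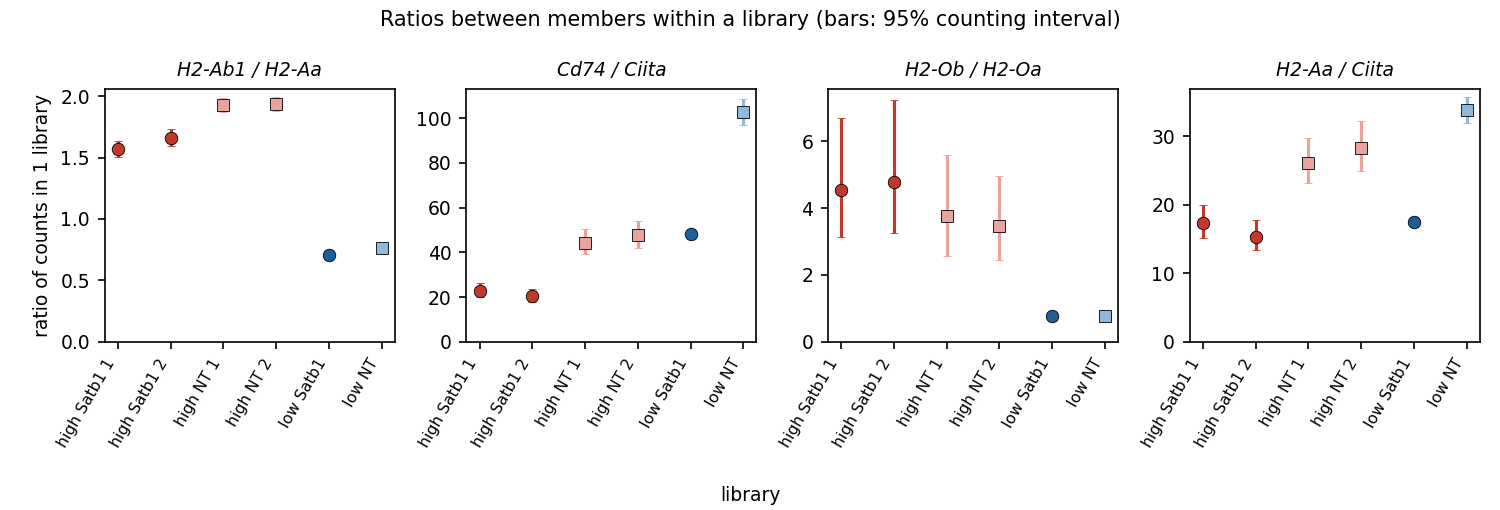
Ratio of counts between pairs of members within each of the 6 libraries (vertical axes from 0, bars are 95% counting intervals). Cd74 per Ciita is lower with Satb1 siRNA than with NT siRNA in both experiments, at 22.9 and 20.4 against 44.3 and 47.6 in the high experiment.

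A wider contrast in these genes lay between the experiments' own controls. With NT siRNA, Cd74 was at 6811 CPM in the low experiment, against 155 and 153 CPM in the high experiment, a log2 ratio of 5.47, which ranked 31 of 13700 genes. H2-Oa was 31.8-fold, H2-Aa 24.6-fold, H2-Eb1 22.03-fold and Ciita 19.6-fold higher in the low than in the high control. H2-DMa, H2-Ab1, H2-DMb1, H2-Ob and H2-Eb2 were between 5.12-fold and 9.98-fold higher. All 10 were at least 2-fold and 8 at least 8-fold higher, where 25.7% and 3.04% of genes were. With library size alone 5 were at least 8-fold higher, where 1.54% of genes were. By TMM the members' median log2 ratio was 3.81, against 0.073 over all genes. With library size alone that median over all genes was -0.56, and Cd74 was at 4.84 and H2-Eb2 at 1.73. The low and high experiments cannot be told apart from whatever else differed between them, and in bulk RNA more cells of a type and more RNA per cell cannot be told apart.

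The members took between 0.0389% and 0.0618% of all counts in the high experiment. They took 1.18% with Satb1 siRNA and 0.936% with NT siRNA in the low experiment. By count, Cd74 ranked 2322 and 2471 with Satb1 siRNA and 1173 and 1202 with NT siRNA in the high experiment, and 6 with Satb1 siRNA and 11 with NT siRNA in the low experiment. Per length, in the authors' FPKM, H2-Ab1 was the highest member in every high library and Cd74 in both low libraries. The count of H2-Ab1 per count of H2-Aa was 1.57 and 1.66 with Satb1 siRNA and 1.93 and 1.94 with NT siRNA in the high experiment. The low experiment gave 0.704 with Satb1 siRNA and 0.760 with NT siRNA.

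**Figure D3:**
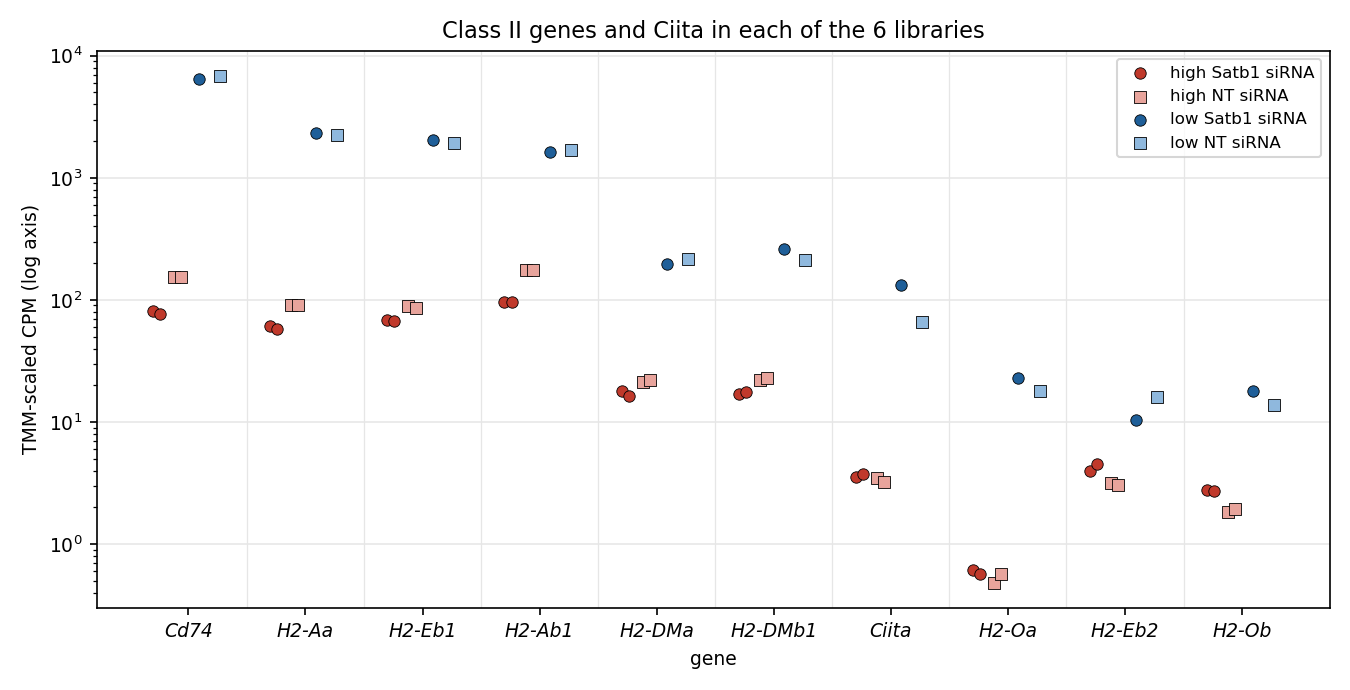
TMM-scaled CPM of each member on a log axis, 1 point a library, circles for Satb1 siRNA and squares for NT siRNA. All 10 members lie higher in the low than in the high experiment, and Cd74 spans the widest range, from 76.1 to 6811 CPM.

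Among the DNA-binding partners of Ciita (Rfx5, Rfxap, Rfxank, Creb1, Nfya, Nfyb and Nfyc), 4 of 7 fell, 1 rose and 2 were not called in the high experiment, a share of calls near the 66.0% of all tested genes. Rfxap had a log2 fold change of -0.46, Rfxank of -0.40 and Nfyc of -0.36. The list's median was -0.20 in the high and -0.18 in the low experiment. Of the inputs to Ciita from interferon-gamma and lineage factors, 8 of 13 tested fell, 4 rose and 1 was not called. The list was not split into inputs that raise Ciita and inputs that restrain it, so these counts give no direction of input. Over all tested genes 33.2% fell and 32.8% rose. Spi1, the myeloid factor PU.1, had a log2 fold change of -0.45, and Irf8, a dendritic cell lineage factor, of -0.27.

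Of the peptide supply genes, 8 of 9 were lower, 0 higher and 1 not called in the high experiment by the edgeR test. Of all tested genes 33.2% were lower and 32.8% higher. Ctsz, a lysosomal cathepsin, had a log2 fold change of -0.59, Ctsb, another cathepsin, of -0.35, and Sppl2a, a protease that clears the Cd74 fragment, of -0.24. The median of the peptide supply list in the low experiment was -0.58. With Satb1 siRNA 3 of the 9 were at least 1.5-fold lower there, where 12.2% of genes were. Of the surface turnover genes, March1, the ubiquitin ligase of class II, had a log2 fold change of 0.18, March8 of -0.08 and Cd83, which opposes March1, of 0.07. All 3 passed the test, as did 66.0% of tested genes.

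Class II genes share their stretch of chromosome 17 with other genes, some of them of the class I pathway. In RefSeq order, the genes between members with deposited values were Brd2 and, of the class I pathway, Psmb9, Tap1, Psmb8 and Tap2. They were looked at after their values were seen. In the high experiment their log2 fold changes were -0.51 for Brd2, -0.53 for Psmb9, -0.75 for Tap1, -0.71 for Psmb8 and -0.53 for Tap2. All were called, as were 66.0% of tested genes. Their log2 ratios in the low experiment were between -0.61 and -0.34. H2-Ob, next to Tap2, had a log2 fold change of 0.55 in the high experiment and a log2 ratio of 0.37 in the low experiment.

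Markers of the cell types that carry class II were summed beside these results. The 10 classical dendritic cell markers summed in the high experiment to 63.6 and 61.8 CPM with Satb1 siRNA, against 65.04 and 65.6 CPM with NT siRNA, with 5 higher and 5 lower. Kit, a receptor that other cells also carry, made up much of this sum, at 40.2 and 39.9 CPM with Satb1 siRNA and 27.2 and 26.2 CPM with NT siRNA. The other 9, a sum added after the values were seen, gave 23.5 and 21.8 CPM with Satb1 siRNA, against 37.8 and 39.4 CPM with NT siRNA. The fall in that sum was that of Itgax, which encodes CD11c. It was at 5.47 and 4.93 CPM with Satb1 siRNA, against 20.3 and 20.2 CPM with NT siRNA (log2 fold change -1.95). With Kit and Itgax set aside, the remaining markers went in both directions. In the low experiment the 10 markers summed to 775 CPM with Satb1 siRNA and 429 CPM with NT siRNA. There 8 of 10 were at least 1.5-fold higher, where 15.6% of all genes were. None of the 10 was at 0 counts in a library, and their median log2 ratio between the low and high controls was 2.77. Markers of the labelled cell type were thus detected in all 6 libraries, which does not show how many such cells were present. The plasmacytoid dendritic, macrophage, B cell, neutrophil, and mesothelial and epithelial lists also had no marker at 0 counts in any library. Detection thus does not single out dendritic cells. Kit went against the median of the classical dendritic cell markers, at 27.2 and 26.2 CPM in the high control and 21.1 CPM in the low control.

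Plasmacytoid dendritic cell markers summed to 231 and 250 CPM with Satb1 siRNA and 224 and 226 CPM with NT siRNA in the high experiment. There 3 of 6 were higher, 1 lower and 2 not called. In the low experiment they summed to 828 CPM with Satb1 siRNA and 1118 CPM with NT siRNA, unlike the classical list. Of 5 described there, 0 were past 1.5-fold in either direction. The 13 macrophage markers found summed to 4837 and 4811 CPM with Satb1 siRNA and 4642 and 4620 CPM with NT siRNA in the high experiment. In the low experiment they summed to 7453 CPM with Satb1 siRNA and 11756 CPM with NT siRNA, with 8 of 13 at least 1.5-fold lower. B cell markers summed to 69.3 and 68.4 CPM with Satb1 siRNA and 47.9 and 48.9 CPM with NT siRNA in the high experiment, where 8 of 11 tested rose, 0 fell and 3 were not called. Their sums in the low experiment were 71.001 CPM with Satb1 siRNA and 68.4 CPM with NT siRNA. T cell markers summed to 70.8 and 70.6 CPM with Satb1 siRNA and 58.8 and 57.5 CPM with NT siRNA in the high experiment, with 5 of 10 higher and 0 lower, and to 37.98 CPM with Satb1 siRNA and 49.8 CPM with NT siRNA in the low experiment. Mesothelial and epithelial markers summed to 705 and 699.97 CPM with Satb1 siRNA and 646 and 648 CPM with NT siRNA in the high experiment, where 6 of 8 were higher and 0 lower. They summed to 612 CPM with Satb1 siRNA and 169 CPM with NT siRNA in the low experiment, and all 8 were at least 1.5-fold higher. Neutrophil markers summed in the high experiment to 104 and 104 CPM with Satb1 siRNA, against 94.1 and 94.2 CPM with NT siRNA, and to 262 CPM with Satb1 siRNA and 557 CPM with NT siRNA in the low experiment. For the counts of all marker lists, 32.8% of all tested genes were higher and 33.2% lower in the high experiment. In the low experiment 15.6% of genes were at least 1.5-fold higher and 12.2% at least 1.5-fold lower. The part of the cell type markers in the members' values was not tested.

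**Figure D4:**
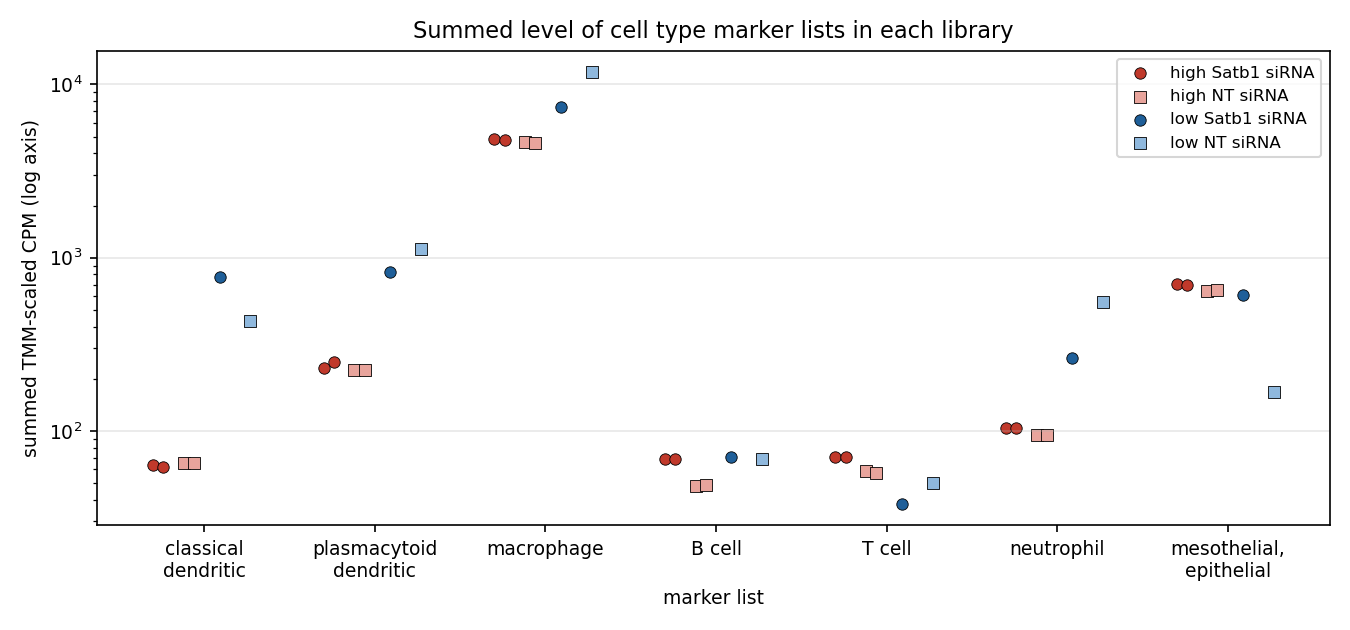
Summed TMM-scaled CPM of the marker lists on a log axis, 1 point a library, circles for Satb1 siRNA and squares for NT siRNA. Classical dendritic cell markers lie between 61.8 and 65.6 CPM in the high experiment, where the sum without Kit was 23.5 and 21.8 CPM with Satb1 siRNA and 37.8 and 39.4 CPM with NT siRNA, and at 775 CPM with Satb1 siRNA and 429 CPM with NT siRNA in the low experiment. The fall in the sum without Kit was that of Itgax, and the remaining markers went in both directions.

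The genes with the profile nearest to the mean of H2-Aa, H2-Ab1, H2-Eb1 and Cd74 over the 4 groups were Lgals9, Oasl1, Slamf8, Il2rg and I830012O16Rik, at distances of 0.341 to 0.493 on the log2 scale among 5147 genes. For Ciita they included Dpp4, Rogdi, Mgl2 and Pkp3, at 0.338 to 0.509 among 13690 genes. The lists shared no gene. H2-Ab1 and Cd74 themselves lay further from the first mean profile, at 1.13 and 1.12. I830012O16Rik had a log2 change of -0.02 in the high experiment, so nearness need not mean a like response to Satb1 siRNA. Lgals9 was at 38.6 and 36.9 CPM with Satb1 siRNA and 66.9 and 65.8 CPM with NT siRNA in the high experiment, and at 1061 CPM with Satb1 siRNA and 1200.1 CPM with NT siRNA in the low experiment. Mgl2, a lectin of dendritic cells and macrophages, had a log2 ratio of 1.16 in the low experiment.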

How the data were processed

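Total RNA was extracted with Trizol and made into libraries with a stranded total RNA kit, per the labels' protocols. The deposited expected counts and FPKM values were made by the authors; RSEM 1.2.12, DESeq2 and build mm9 are named in the submitters' processing notes, with no role stated. Expected counts were deposited as whole numbers. The members and gene lists were chosen with earlier results of these data known. Fits used edgeR 4.0.16 in R 4.3.3: TMM scaling, filterByExpr and the robust quasi-likelihood test, with genes called at an adjusted p of 0.05. DESeq2 1.42.0 was an alternative. Low and control ratios used log2 CPM with a prior count of 2 for genes with a mean of at least 0, with no test. Ratios of counts have 95% intervals for counting error only. Named genes outside the members were the 3 with the lowest p in each list and the 5 nearest profiles, except genes that are not reported here. Repeat numbers did not pair the libraries. Data were simulated with the spread between the near-identical repeats, and changes were placed only in genes above a minimum mean count. On these data the high comparison recovered 93% of changes of 0.5 on the log2 scale. The difference of effects recovered 56% of changes of 0.5 and 79% of changes of 1. Recovery with the spread between mice was not simulated.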

Additional observations from a re-analysis of the deposited data

Results flagged for a closer look

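For 8 members the effect of Satb1 siRNA in the high minus the low experiment exceeded the spread between the near-identical repeats of the high experiment. No library of the low experiment was repeated, and 39.7% of all genes passed the same edgeR fit, so a difference between separate samples was not tested. On the log2 scale the value was -0.87 for Cd74, -0.81 for H2-Ab1, -0.66 for H2-Aa and -0.44 for H2-Eb1. It was -0.69 for H2-DMb1, -0.20 for H2-DMa, -0.87 for Ciita and 1.06 for H2-Eb2. Cd74 was lower with Satb1 siRNA in the high experiment, and Ciita was higher with Satb1 siRNA in the low experiment. The level of every member in NT libraries also differed between the experiments, and the part of that in these values was not tested.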

How the results depend on the processing

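With repeats summed and experiment as a term, edgeR called 0 members lower and 0 higher, and H2-Eb2 reversed to -0.082 (adjusted p = 0.989); 6 of 19068 genes were called at all, 0.0315%. With library size alone, 0 members were at least 1.5-fold lower and 4 higher in the low experiment, 5 in place of 8 were at least 8-fold higher in the low than in the high NT control (a count added after the data were seen), and the difference of effects for H2-Ob reversed to -0.13 (edgeR adjusted p = 0.615). With the replicate block the counts stayed at 6 lower and 2 higher; same-numbered libraries did not deviate together (r = -0.041 over 20242 genes), so the numbers were not read as a pairing. Leaving out each library of the high experiment gave 6 lower and 2 higher throughout, and 7 to 8 members called for the difference of effects. That for H2-DMa was also lost with DESeq2 size factors (edgeR adjusted p = 0.139) and with the DESeq2 Wald test (adjusted p = 0.663). The causes were not tested. Depth limits H2-Oa in the high experiment, and the number of libraries limits every comparison in the low experiment.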

Other observations

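The gene length implied by the deposited counts and FPKM was not the same in both experiments for every member. For Ciita it also differed between siRNAs within the high experiment. For H2-Eb2 it was 6992 and 6120 bases with Satb1 siRNA and 6598 and 6986 bases with NT siRNA in the high experiment, and 3463 bases with Satb1 siRNA and 3464 bases with NT siRNA in the low experiment. For Ciita, whose row joins 6 transcript identifiers, it was 4021 and 3985 bases with Satb1 siRNA and 4795 and 4677 bases with NT siRNA in the high experiment, and 5144 bases with Satb1 siRNA and 5281 bases with NT siRNA in the low experiment. For H2-Aa it lay between 1073 and 1081 bases in all 6 libraries.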
